A study of Homo sapiens with 2 samples.

Results

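The cells described here are the endothelial barcodes with the largest share of RNA from 7 stress genes, DDIT3, TRIB3, HERPUD1, PSAT1, MTHFD2, NIBAN1 and DNAJB9. A barcode marks the RNA of 1 captured droplet, and a UMI (unique molecular identifier) is 1 counted RNA molecule. Of 5493 deposited barcodes, 2913 had 2000 or more UMIs and at most 10% of them from mitochondrial genes, and were kept. The 117 members are the top 4% of the kept barcodes of both libraries pooled, ranked by the share of their UMIs that came from the 7 genes. The hRBC library gave 70 members and 1302 remaining barcodes, and the 5% pdRBC library 47 members and 1494 remaining barcodes. Measured values thus chose the members, and their levels of the 7 genes are a description.

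The study lined microfluidic channels with HUVECs, primary endothelial cells of the human umbilical vein, and let red blood cells flow over them for 4 hours. Healthy red cells alone were used in the hRBC group. In the 5% pdRBC group the suspension held 5% of red cells dehydrated with nystatin and sucrose, which lowers their deformability, among healthy ones. The question was what a small share of stiff red cells does to the endothelium. There is 1 library (10x Genomics 5′ single-cell RNA) per group, and the number of devices and of HUVEC donors is not given in the sources used here, so no test or p-value is given and library, device and treatment cannot be told apart.

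DDIT3 encodes CHOP, a transcription factor of the integrated stress response. In that response, kinases that sense misfolded protein in the endoplasmic reticulum, lack of amino acids, viral RNA or lack of heme phosphorylate the translation factor eIF2, which lowers most protein synthesis but lets the transcription factor ATF4 be made. ATF4 raises genes for amino acid synthesis and uptake and for tRNA charging, as well as DDIT3 and its pseudokinase target TRIB3. The unfolded protein response overlaps with it: besides the kinase PERK (EIF2AK3), which acts through eIF2, the sensors IRE1 (ERN1) and ATF6 raise chaperones and the machinery that removes misfolded proteins, to which HERPUD1 and DNAJB9 belong. PSAT1 makes serine and MTHFD2 works in the mitochondrial folate cycle, and NIBAN1 is a stress-induced regulator of translation and survival.

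The promoters of a few genes of the results carry short elements that this biology is known for. Printed as examples that hold a match are those of HERPUD1 and of GOT1, AARS1 and HSPA5, which are among the leading genes below. The windows of DDIT4, GDF15, CXCL8 and CDC20, also among the leading genes, held no match to the elements searched. CARE, the C/EBP-ATF response element to which ATF4 binds, was searched as TGATGNAA. ERSE, the endoplasmic reticulum stress element of ATF6 and NF-Y, was searched as CCAAT and CCACG with 9 bases between them, and ERSE-II as ATTGG and CCACG with 1 base between them. Each was sought on both strands of RefSeq's windows from 250 bases before to 50 after each annotated start (GRCh38.p14), a gene counting where any of its windows holds a match, and no 2 matches printed here overlap. The 250 bases before the start are written 5′ to 3′ on the gene's strand, with the matches in capitals.
HERPUD1 (strand +, chr16:56931892-56932141): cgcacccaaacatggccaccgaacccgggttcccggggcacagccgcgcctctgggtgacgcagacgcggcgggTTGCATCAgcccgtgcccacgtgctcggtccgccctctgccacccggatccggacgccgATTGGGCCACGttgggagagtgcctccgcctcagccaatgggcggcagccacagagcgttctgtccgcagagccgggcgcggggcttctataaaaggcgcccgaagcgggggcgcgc
GOT1 (strand -, chr10:99430625-99430874): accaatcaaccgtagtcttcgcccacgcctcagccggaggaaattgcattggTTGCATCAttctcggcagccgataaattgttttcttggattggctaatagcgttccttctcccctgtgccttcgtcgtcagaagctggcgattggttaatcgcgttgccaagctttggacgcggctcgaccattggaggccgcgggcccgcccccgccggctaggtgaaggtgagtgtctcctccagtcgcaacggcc
AARS1 (strand -, chr16:70289507-70289756): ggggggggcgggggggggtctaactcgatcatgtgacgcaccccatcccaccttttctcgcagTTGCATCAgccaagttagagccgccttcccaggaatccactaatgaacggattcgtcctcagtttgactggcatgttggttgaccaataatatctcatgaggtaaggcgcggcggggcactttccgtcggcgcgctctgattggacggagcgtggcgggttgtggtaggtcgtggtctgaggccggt
HSPA5 (strand -, chr9:125241344-125241593): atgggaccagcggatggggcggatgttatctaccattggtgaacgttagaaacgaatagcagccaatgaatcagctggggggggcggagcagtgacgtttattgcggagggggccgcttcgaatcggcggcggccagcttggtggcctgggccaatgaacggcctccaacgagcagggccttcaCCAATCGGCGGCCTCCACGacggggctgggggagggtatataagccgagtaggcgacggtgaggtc
HERPUD1 holds a CARE match on the opposite strand, TTGCATCA, which begins 176 bases before the start, and an ERSE-II match, ATTGGGCCACG, 117 bases before it. GOT1 (198 bases before) and AARS1, which the files name AARS (187 bases before), hold the same CARE letters, and HSPA5 holds 1 ERSE match, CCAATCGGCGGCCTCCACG, 66 bases before its start. Of the 7 genes that chose the members, HERPUD1 is the 1 whose window holds any of the 3 motifs. That says only that these letters are not in the other windows.

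The rule caught different kinds of barcode in the 2 libraries. Members were 5.10% of kept hRBC barcodes (exact binomial 95% interval 4.00 to 6.40) and 3.05% of kept 5% pdRBC barcodes (2.25 to 4.04). These and all later intervals are exact Clopper-Pearson intervals that cover counting error only. The score had a median of 0.0108% over the kept barcodes and was 0 in 1037 of them (35.6%). The last members inside the limit scored 0.0564, 0.0562 and 0.0562%, and the first barcodes outside it 0.0560, 0.0560 and 0.0559%. A barcode of 3570 UMIs with 2 UMIs of the 7 genes was left out and 1 of 5334 UMIs with 3 was taken, so 1 UMI decides membership in shallow barcodes.

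**Figure D1:**
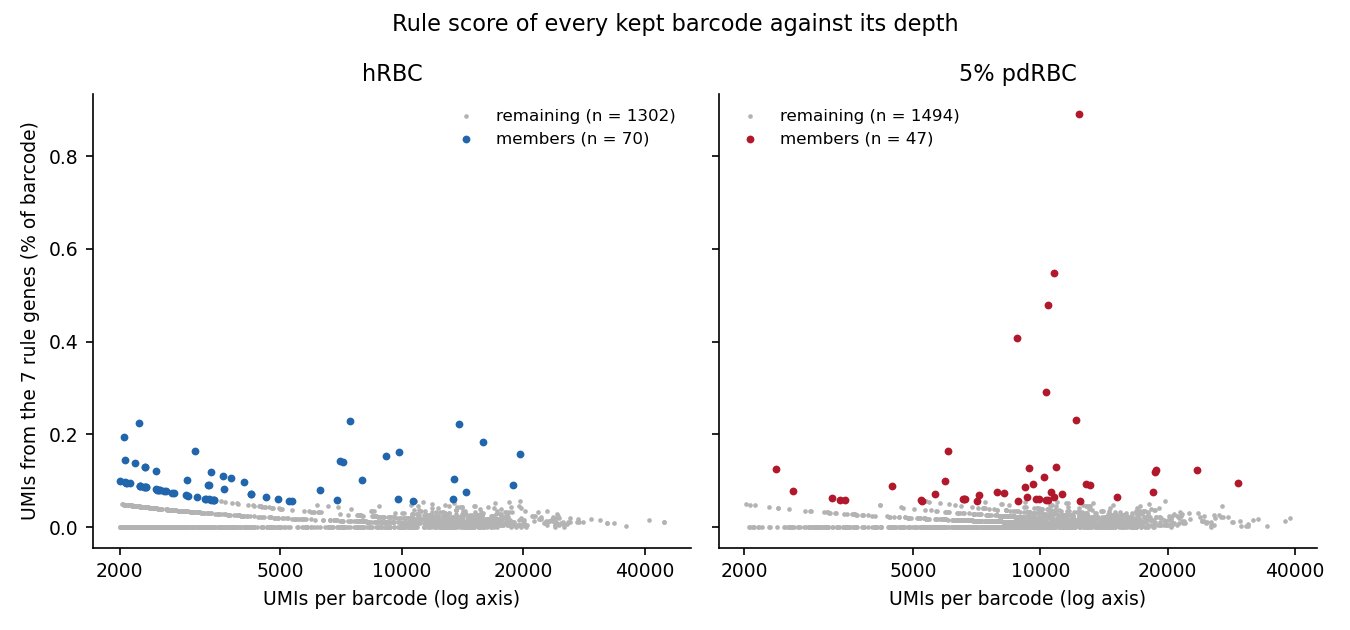
Share of each kept barcode's UMIs from the 7 rule genes (vertical axis, %) against its UMIs (horizontal axis, log scale), with hRBC on the left and 5% pdRBC on the right; coloured points are members and grey points remaining barcodes. The hRBC members crowd at the shallow end, where 2 UMIs are enough, and the 3 highest scores are 5% pdRBC members of about the usual depth, at 0.479 to 0.890%.

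Depth separated the members of the libraries. The hRBC members had a median of 3295.5 UMIs (2004 to 19668) and 1718.5 genes, against 7740 UMIs and 2848 genes in the remaining hRBC barcodes. The 5% pdRBC members had a median of 9604 UMIs (2374 to 29296) and 3311 genes, close to the 9719.5 UMIs and 3422 genes of the remaining ones. In the hRBC library the members' share was 8.01% (31 of 387) at 2000 to 3000 UMIs and 1.49% (8 of 538) at 10000 or more, while in the 5% pdRBC library it was 4.00% (2 of 50) and 2.89% (21 of 726). The larger hRBC share thus lay in shallow barcodes: among barcodes with 5000 or more UMIs, ranked anew, 3.77% of hRBC and 4.16% of 5% pdRBC barcodes were members. With every barcode thinned to 2000 UMIs before scoring, the shares were 4.30% and 3.76%. Members' mitochondrial shares had medians of 1.83% (hRBC) and 1.5% (5% pdRBC), against 1.94% and 1.84% in the remaining barcodes.

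The name DDIT3 and TRIB3 high suits the 5% pdRBC members better than the hRBC members. Both genes had a UMI in 27 of 47 5% pdRBC members but in 7 of 70 hRBC members, and neither had one in 6 and 26. The hRBC members rested on a median of 3 UMIs of the 7 genes from 2 of them, with 31 of 70 at the lowest number, 2 UMIs, and 12 with a single gene detected. In the 5% pdRBC members the median was 7 UMIs from 4 genes, and 4 of 47 had just 2 UMIs. In UMIs, which are not scaled by transcript length, each member was assigned to its largest gene, ties going to the gene listed first in the opening. HERPUD1 took 25 hRBC members and 15 of the 5% pdRBC members. MTHFD2 (20) and TRIB3 (17) followed in the former, and DDIT3 (11) and MTHFD2 (10) in the latter. Ties were frequent in hRBC members, many with a single UMI of each detected gene, so this order does not rank the genes. At least 4 of the 7 genes were detected in 13 hRBC and 26 5% pdRBC members, and also in 30 and 41 remaining barcodes, which are deeper. Since depth sets how many genes a barcode can show, these counts do not compare the libraries' cells.

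Members carried endothelial markers. The 16 endothelial identity genes summed to 5618 CPM in hRBC members and 4074 CPM in 5% pdRBC members, where CPM are UMIs scaled to 1000000 UMIs summed over the barcodes of a group. The remaining barcodes stood at 6275 and 5910 CPM, so the members' sums were 0.895-fold (0.856 to 0.936) and 0.689-fold (0.658 to 0.721) of those. PECAM1, the junction molecule CD31, had a UMI in 65 of 70 and 41 of 47 members and stood at 748 and 494 CPM, and CDH5, the VE-cadherin gene, had a UMI in 60 and 41 and stood at 502 and 411 CPM. Most markers of other cell types were at or near 0, with exceptions chiefly among fibroblast and mural genes and epithelial genes. All 7 neutrophil markers were at 0 in the members of both libraries, as were 9 of 10 erythroid markers, HBB among them, with SLC25A37 (57.4 and 45.1 CPM) the exception. Of the T and NK markers 9 of 10 (hRBC) and 8 of 10 (5% pdRBC) were at 0, of the B cell markers 6 and 7 of 7, of the monocyte markers 7 and 7 of 8 (all but CD68), of the platelet markers 7 and 5 of 7 and of the lymphatic markers 5 and 4 of 6. Fibroblast and mural genes summed to 350 and 271 CPM, nearly all from RGS5 (298 and 256 CPM), against 395 and 351 CPM in remaining barcodes. Epithelial genes summed to 407 and 211 CPM, from KRT7 and KRT18, against 324 and 241 CPM. Their sums were 1.26-fold (1.05 to 1.49) and 0.877-fold (0.707 to 1.07) those of the remaining barcodes. The libraries share 9 barcode sequences, of which 3 were kept and 0 are members, and no doublet caller was run.

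DDIT3 had 29 UMIs in 19 hRBC members and 109 UMIs in 33 of the 5% pdRBC members. Its level was 83.2 CPM in hRBC members against 10.4 CPM in the remaining hRBC barcodes, and 234 against 13.6 CPM in the 5% pdRBC library, log2 folds of 3.02 and 4.11. It was found in 27.1% of hRBC and 70.2% of 5% pdRBC members, against 8.14% and 11.6% of the remaining barcodes, and in 12.9% and 46.8% of members with each barcode thinned to 2000 UMIs (2.07% and 3.01% of the remaining). DDIT3 is one of the genes that chose the members, at different depths in each library, so these shares describe the choice, thinned or not. DDIT3 (ENSG00000175197) spans chr12:57516588-57521737 on the minus strand in GENCODE release 29 (GRCh38), and TRIB3 (ENSG00000101255) chr20:362835-397559 on the plus strand. TRIB3 had 78 UMIs in 32 hRBC members (224 CPM against 27.9 CPM) and 126 UMIs in 35 of the 5% pdRBC members (271 CPM against 26.5 CPM).

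HERPUD1, a membrane protein of endoplasmic reticulum degradation, had 89 UMIs in 47 hRBC members (255 CPM against 43.2 CPM) and 182 UMIs in 30 of the 5% pdRBC members (391 CPM against 39.1 CPM). MTHFD2 had 115 UMIs in 40 and 113 UMIs in 31 members (330 CPM against 36.4 CPM, and 243 CPM against 28.4 CPM). The largest number of UMIs in the score thus came from the folate enzyme in hRBC members and from the reticulum protein in 5% pdRBC members. PSAT1 was rare elsewhere, at 4.32 and 3.09 CPM in remaining barcodes, and stood at 77.4 CPM (27 UMIs) and 75.2 CPM (35 UMIs) in members. DNAJB9, a cochaperone of HSPA5, stood at 88.9 and 153 CPM in members. NIBAN1 adds little: it had 5 UMIs in 3 hRBC members and 20 UMIs in 6 of the 5% pdRBC members, of which 12 were in 1 barcode.

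**Figure D2:**
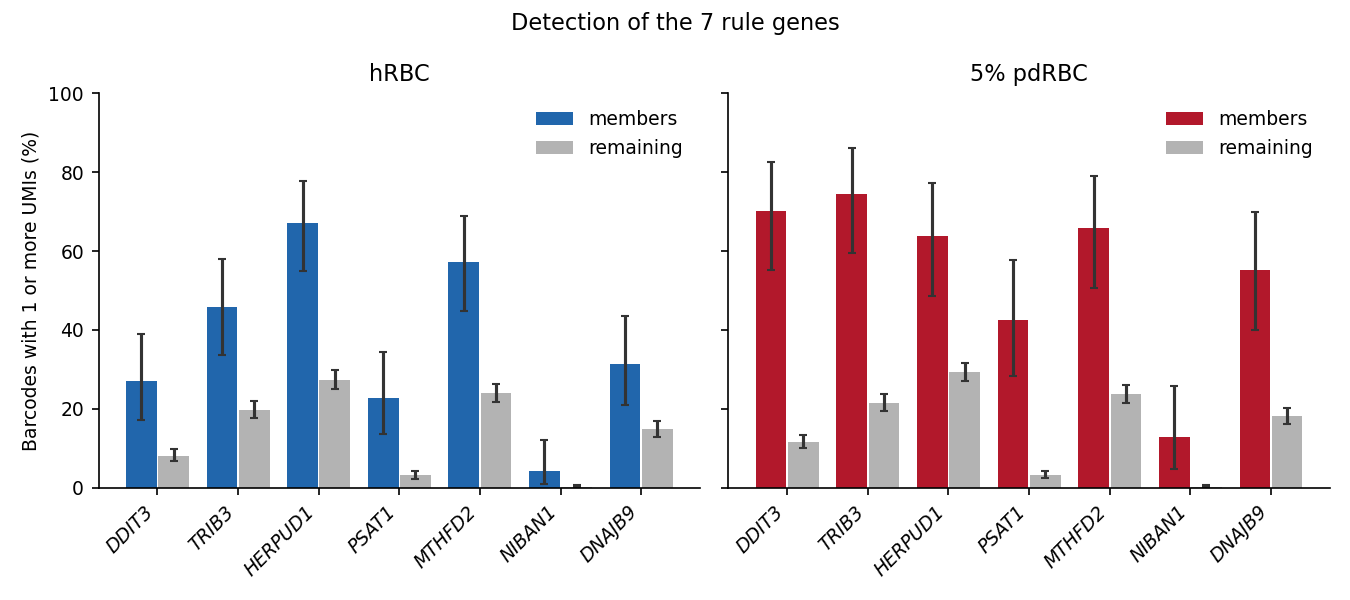
Share of barcodes with 1 or more UMIs (vertical axis, %, not thinned) of each of the 7 rule genes (horizontal axis), for members and remaining barcodes of hRBC (left) and 5% pdRBC (right); bars of error are exact binomial 95% intervals. DDIT3 is found in 27.1% of hRBC and 70.2% of 5% pdRBC members, while HERPUD1 is found in similar shares, 67.1% and 63.8%.

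A small number of 5% pdRBC barcodes carried much of the signal. The highest-scoring one had 110 UMIs of the 7 genes among 12355 UMIs (0.890%): 35 of HERPUD1, 21 of DDIT3, 16 of DNAJB9, 14 of TRIB3, 12 of NIBAN1, 10 of MTHFD2 and 2 of PSAT1. The next 2 had 59 and 50 UMIs, and the highest hRBC member scored 0.229%. Summed over members the score was 0.107% in hRBC and 0.141% in 5% pdRBC, against 0.0143% and 0.0133% in the remaining barcodes. The median member score was in the other order, 0.0869% and 0.0758%.

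Because the members were chosen on the sum of 7 genes, whether these genes occur together was read by choosing 4% of the kept barcodes on some of them and reading the others. With HERPUD1 and DNAJB9 alone as the score, 87 hRBC and 30 5% pdRBC barcodes were chosen. In the 30 5% pdRBC barcodes DDIT3 was 15.2-fold (11.5 to 19.7) above the remaining barcodes, TRIB3 9.09-fold (7.06 to 11.5) and the other 5 genes summed 10.0-fold (8.69 to 11.4). In the 87 hRBC barcodes DDIT3 was 2.46-fold (0.984 to 4.71) and TRIB3 1.76-fold (0.967 to 2.81) above, with intervals that hold 1, and the 5 genes summed 1.92-fold (1.42 to 2.52). Without the 3 highest-scoring 5% pdRBC barcodes the values there were 9.03-fold (6.20 to 12.6) for DDIT3, 4.75-fold (3.28 to 6.54) for TRIB3 and 5.75-fold (4.74 to 6.87) for the 5 genes. Among barcodes of 5000 or more UMIs the 5 genes summed 1.74-fold (1.24 to 2.32) in hRBC and 5.13-fold (4.49 to 5.82) in 5% pdRBC.

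The reverse choice, on DDIT3, TRIB3, PSAT1, MTHFD2 and NIBAN1, gave 77 hRBC and 40 5% pdRBC barcodes. There HERPUD1 stood at 100 CPM against 48.0 CPM in hRBC, 2.12-fold (1.42 to 2.97), and at 404 CPM against 40.6 CPM in 5% pdRBC, 9.97-fold (8.29 to 11.9). DNAJB9 was 1.73-fold (0.847 to 2.96) and 5.47-fold (3.92 to 7.34) above. Without the 3 highest-scoring 5% pdRBC barcodes HERPUD1 was 5.94-fold (4.65 to 7.43) and DNAJB9 2.90-fold (1.78 to 4.34) above. In the 5% pdRBC library the intervals given for the genes read thus leave out 1 in both choices. In the hRBC library the folds were smaller, and the intervals of DDIT3, TRIB3 and DNAJB9 singly hold 1. The chosen hRBC barcodes were also shallower. Their median UMIs were 2423 (HERPUD1 and DNAJB9 alone) and 2316 (reverse choice), against 10331.5 and 9345 in 5% pdRBC. The intervals rest on summed UMIs, which can lie in few barcodes. Joint occurrence per barcode was not tested, nor was the difference between the libraries. Among hRBC barcodes of 5000 or more UMIs DNAJB9 was 2.05-fold (1.14 to 3.28) above, an interval that leaves out 1, while DDIT3 (2.33-fold, 0.859 to 4.65) and TRIB3 (1.01-fold, 0.436 to 1.85) had intervals that hold it.

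Outside the 7 genes, 8946 genes were measured, that is, had 100 or more UMIs over the kept barcodes of each library. A gene was called higher or lower in members where its level differed from the remaining barcodes by 1.5-fold or more with a counting interval that left out 1, in both libraries; folds are of CPM with 0.5 UMIs added. On this rule 109 genes (1.22%) were higher and 48 (0.537%) lower. In single libraries the hRBC members had 418 higher (4.67%) and 218 lower (2.44%), and the 5% pdRBC members 452 (5.05%) and 440 (4.92%). The 109 make up 26.1% of the hRBC and 24.1% of the 5% pdRBC genes called higher, and the 48 make up 22.0% and 10.9% of those called lower. The median log2 fold of all measured genes was 0.08 in hRBC and 0.02 in 5% pdRBC. As the members were chosen from the same counts, these numbers describe the members and test nothing, and the rule finds higher genes more readily than lower ones.

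Genes of the integrated stress response were higher in members of both libraries. Of 86 genes in 5 lists, without the 7, 62 were measured, and 21 of these were called higher and 0 lower. The median log2 fold of the 62 was 0.59 in hRBC and 0.62 in 5% pdRBC, and together the 86 genes stood at 7662 CPM in hRBC members against 5110 CPM, and at 8006 CPM against 5136 CPM in 5% pdRBC. The summed levels were thus 1.5-fold (1.44 to 1.56) and 1.56-fold (1.51 to 1.61) above the remaining barcodes. Several of the 7 genes that chose the members belong to the same response. When HERPUD1 and DNAJB9 alone chose the members, 5 of the 62 were called higher in both libraries. The sums were then 1.18-fold (1.12 to 1.23) in hRBC and 1.45-fold (1.39 to 1.51) in 5% pdRBC. Without the 3 highest-scoring 5% pdRBC barcodes the latter was 1.26-fold (1.20 to 1.32).

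Among regulators, 4 of 17 measured genes were called higher (median log2 fold 0.37 and 1.09). ATF4 itself had 93 UMIs in 36 hRBC members and 145 UMIs in 39 of the 5% pdRBC members, 267 CPM against 141 CPM and 312 CPM against 124 CPM. DDIT4, the stress-induced inhibitor of mTORC1, led all genes called in both libraries: 78 UMIs in 23 hRBC members (224 CPM against 41.3 CPM, log2 fold 2.44) and 87 UMIs in 21 5% pdRBC members (187 CPM against 38.7 CPM, log2 fold 2.28). The dimer partners of ATF4 and CHOP, CEBPB (74.6 against 37.5 CPM, and 140 against 43.3 CPM) and CEBPG (91.8 against 41.8 CPM, and 96.7 against 47.3 CPM), were the other 2 called. In the 5% pdRBC members alone 10 of the 17 were called higher, among them EIF2AK3, the kinase PERK (log2 fold 1.54), SESN2, a leucine sensor (1.79), and PPP1R15A, the phosphatase subunit that ends the response (507 CPM against 227 CPM). In hRBC members their log2 folds were 0.99, 0.75 and 0.48, short of the call.

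Enzymes and carriers of amino acids followed. GOT1, the cytosolic aspartate aminotransferase, had 15 UMIs in hRBC members and 25 in 5% pdRBC members (43.0 against 13.1 CPM, and 53.7 against 10.8 CPM), and SHMT2, which feeds serine into the mitochondrial folate cycle upstream of MTHFD2, 33 and 51 UMIs (94.6 against 31.9 CPM, and 110 against 26.8 CPM). These were the 2 of 9 measured genes of amino acid synthesis that were called, and the list's median log2 fold was 0.54 in hRBC and 0.13 in 5% pdRBC. PSPH, the last enzyme of serine synthesis, had log2 folds of 1.53 and 0.13. When HERPUD1 and DNAJB9 alone chose the members, the smaller log2 fold of GOT1 turned to -0.19. Of 8 measured transporters 4 were called higher (median 0.83 and 0.71): SLC3A2, the heavy chain CD98 (430 against 156 CPM, and 286 against 156 CPM), its leucine-carrying partner SLC7A5 (77.4 against 47.6 CPM, and 105 against 53.7 CPM), the arginine carrier SLC7A1 (log2 folds 0.94 and 1.08) and the glutamine carrier SLC38A1 (1.20 and 1.22). SLC7A11, the cystine carrier, had log2 folds of 0.20 and 0.34.

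The enzymes that charge tRNAs were the list with the most calls: 9 of 21 measured genes were higher and 0 lower, with medians of 0.72 and 0.51. GARS, for glycine, stood at 229 CPM against 101 CPM in hRBC and 211 CPM against 98.2 CPM in 5% pdRBC. WARS, for tryptophan, stood at 88.9 against 30.5 CPM and 58.0 against 28.8 CPM, and AARS, for alanine, at 45.9 against 16.9 CPM and 45.1 against 16.9 CPM, though its smaller log2 fold was -0.53 when HERPUD1 and DNAJB9 alone chose the members. CARS, IARS, SARS, TARS, YARS and the tRNA export receptor gene XPOT had log2 folds between 0.71 and 1.16. Of the secreted and other targets, 2 of 7 were called: GDF15, a stress cytokine, with 189 UMIs in 41 hRBC members and 238 UMIs in 35 5% pdRBC members (542 against 165 CPM, and 512 against 154 CPM), and CREBRF (log2 folds 1.42 and 1.24). GDF15 was found in 58.6% and 74.5% of members.

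Chaperones and other genes of the endoplasmic reticulum summed 1.16-fold (1.12 to 1.19) above the remaining barcodes in hRBC members. In 5% pdRBC members they summed 1.40-fold (1.36 to 1.43) above, with more calls. Few barcodes weighed on such sums. Chosen on DDIT3, TRIB3, PSAT1, MTHFD2 and NIBAN1, 5% pdRBC barcodes summed 1.43-fold above, and 1.16-fold (1.12 to 1.19) without the 3 highest-scoring. In hRBC that choice gave 1.09-fold (1.06 to 1.13). Chosen on HERPUD1 and DNAJB9, 5% pdRBC barcodes summed 1.68-fold, and 1.36-fold (1.32 to 1.41) without the 3. In hRBC that choice gave 1.20-fold (1.16 to 1.24). Of 58 measured genes in 3 lists, 4 were called higher in both libraries and 0 lower. In hRBC members 4 were higher and 1 lower, near the shares over all measured genes (4.67% and 2.44%). In 5% pdRBC members 16 were higher and 0 lower, where 5.05% and 4.92% of all measured genes were. The median log2 folds were 0.25 and 0.32. HSPA5, the chaperone BiP, had 228 UMIs in 48 hRBC members and 369 UMIs in 33 of the 5% pdRBC members, of which 110 were in 1 barcode, at 654 CPM against 225 CPM and 793 CPM against 184 CPM. HSP90B1, the chaperone GRP94, stood at 1124 CPM against 654 CPM and 1724 CPM against 564 CPM, and XBP1, the transcription factor that IRE1 activates by splicing, at 80.3 against 34.5 CPM and 110 against 33.8 CPM. SPCS2, a subunit of signal peptidase, was the fourth, with log2 folds of 0.62 and 0.60.

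SDF2L1, a partner of BiP, was called in 5% pdRBC members alone, and the difference between the libraries was not tested: its log2 fold was 0.46 in hRBC (62 UMIs, 178 against 130 CPM) and 2.02 in 5% pdRBC (204 UMIs, 439 against 108 CPM). PDIA4 (0.37 and 1.41) and SELENOK (0.32 and 1.51) had the same order of folds. By list, chaperones had 2 of 20 measured genes called in both libraries, degradation genes and sensors 1 of 19, and translocation and transport 1 of 19. These values are sums, and they did not describe the typical member. Per barcode, the reticulum lists had a median of 111 UMIs per 10000 in hRBC members (51.2 to 326) against 110 in remaining barcodes, and 105 in 5% pdRBC members (58.0 to 769) against 99.1. The highest 3 of the 47 5% pdRBC members held 21.7% of the members' summed per-barcode level, and the highest 3 of the 70 hRBC members 9.63%. The integrated stress lists had medians of 61.0 against 51.6 in hRBC and 73.1 against 50.1 in 5% pdRBC, though the ranges (30.2 to 152 and 26.9 to 199) overlap with the remaining barcodes. Of the 70 hRBC members 51 had fewer than 5000 UMIs, where the remaining barcodes also stood higher (5731 CPM, against 5007 CPM in deeper ones), so the hRBC medians set shallow members against deeper barcodes. At 3000 to 5000 UMIs the hRBC members' sum was 1.03-fold (0.932 to 1.14) that of remaining barcodes.

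**Figure D3:**
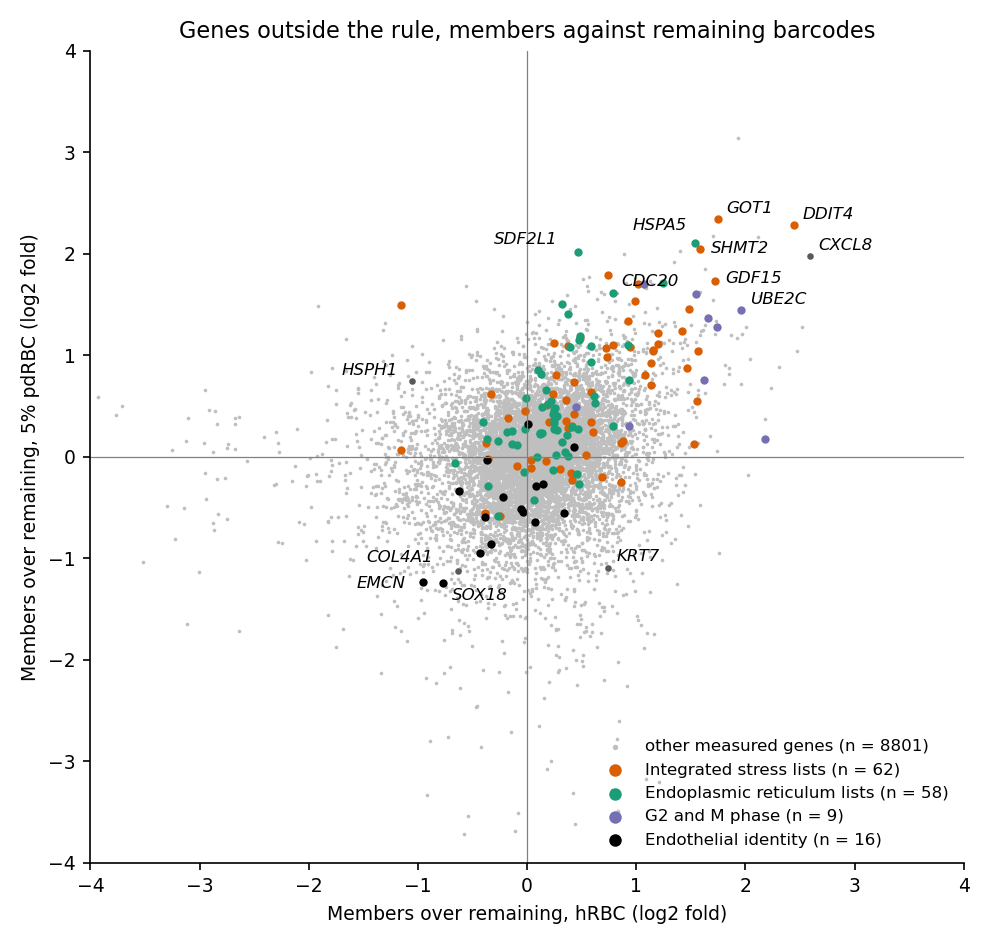
Log2 fold of members over remaining barcodes in hRBC (horizontal axis) and 5% pdRBC (vertical axis) for each of 8946 measured genes, with the integrated stress, reticulum, G2 and M phase and endothelial identity genes coloured. GOT1, DDIT4, HSPA5, SHMT2 and GDF15 lie at the upper right, SDF2L1 lies near the vertical axis with folds of 0.46 and 2.02, and EMCN and SOX18 lie at the lower left.

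Members that carried 4 or more of the 7 genes, an alternative chosen after seeing the data, stood further from the rest. They were 13 in hRBC and 26 in 5% pdRBC, with median UMIs of 13391 and 10522.5. The integrated stress lists summed 1.85-fold (1.75 to 1.94) above the remaining barcodes in the 13 and 1.21-fold (1.14 to 1.28) in the other 57 hRBC members, and 1.62-fold (1.56 to 1.69) and 1.42-fold (1.34 to 1.51) in the 26 and the other 21 5% pdRBC members. The reticulum lists were 1.34-fold (1.29 to 1.40) above in the 13 and 1.00-fold (0.958 to 1.04) in the 57, and 1.57-fold (1.53 to 1.62) in the 26 and 1.01-fold (0.963 to 1.06) in the 21. In sums, the reticulum lists thus stood above the remaining barcodes in members with several rule genes, which were also the deeper ones: the other members had median UMIs of 2915 in hRBC and 6606 in 5% pdRBC. Per barcode the median of the 26 was 112 UMIs per 10000 against 99.1 in remaining barcodes, and the highest 3 held 33.4% of their summed level. HSPA5 was 4.67-fold above in the 13 and 1.45-fold in the 57, and 5.59-fold in the 26 and 1.53-fold in the 21. DDIT4 was 9.26-fold and 2.35-fold above, and 6.29-fold and 1.85-fold. A split by depth, read against remaining barcodes of the same depth and so not on the scale of the values above, gave the same order. Integrated stress genes were 1.74-fold (1.65 to 1.82) above in hRBC members of 5000 or more UMIs and 1.09-fold (1.02 to 1.17) in those of fewer, and 1.58-fold (1.53 to 1.64) and 1.06-fold (0.868 to 1.28) in 5% pdRBC. The reticulum lists were at 1.26-fold (1.21 to 1.31) and 0.957-fold (0.909 to 1.01) in hRBC, and at 1.41-fold (1.38 to 1.45) and 1.09-fold (0.938 to 1.24) in 5% pdRBC. The number of rule genes and depth were not separated.

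**Figure D4:**
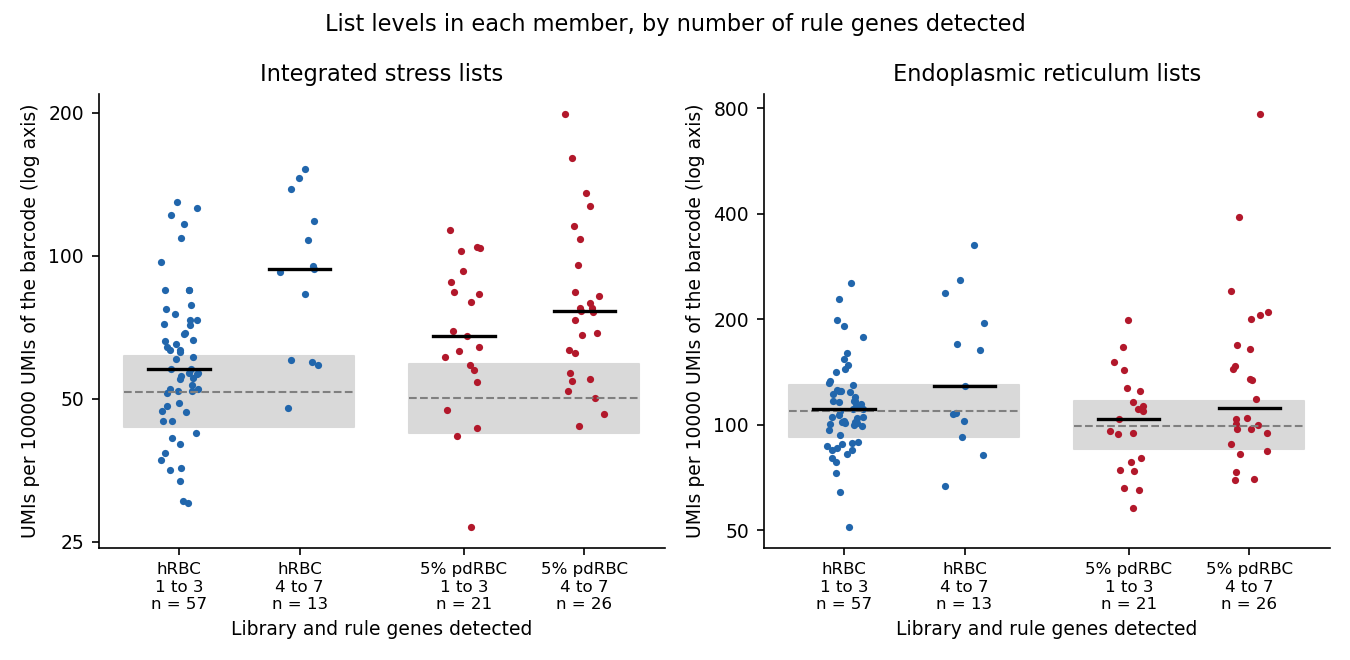
UMIs of the integrated stress lists (left) and the endoplasmic reticulum lists (right) per 10000 UMIs of each member (log axes), by library and by number of rule genes detected; bars are medians, and the grey band and dashed line give the quartiles and the median of the remaining barcodes. The medians with 4 to 7 genes are 93.6 and 76.4 for the integrated stress lists and 129 and 112 for the reticulum lists, and 1 5% pdRBC member stands at 769 on the right.

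The promoter elements were spread unevenly over the gene lists. CARE letters occur in the windows of 4.46% of 27305 genes and of 2.67% of the 7381 measured genes that matched RefSeq. Of the 87 genes called higher in both libraries that have a window, 14 hold CARE (16.1%), among them GOT1, AARS, SLC38A1, SLC7A1, SLC3A2, CEBPG, TARS, CARS and IARS; of 40 called lower 2 do (5%). In the integrated stress lists 20 of 64 genes with a window hold it (31.3%), and in the reticulum lists 2 of 52 (3.85%). ERSE letters occur in the windows of 0.0916% of all genes and of 0.176% of the measured genes. They occur in 9 of 52 of the reticulum lists (17.3%), in 0 of 64 of the integrated stress lists and in 3 of the 87 called higher, HSPA5, XBP1 and HSP90B1. ERSE-II letters occur in the windows of 0.0696% of all genes and of 0.176% of the measured genes, the rule gene HERPUD1 among them. They occur in 2 of 52 of the reticulum lists (3.85%, HYOU1 and SDF2L1), in 0 of 64 of the integrated stress lists and in 0 of the 87 called higher. These are matches of letters, and the data bear on neither binding nor cause.

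Genes of cell division were also higher in members. Of 9 measured G2 and M phase genes 5 were called higher in both libraries and 0 lower, with medians of 1.62 and 1.28, and the list summed to 533 CPM in hRBC members against 186 CPM and to 307 CPM against 128 CPM in 5% pdRBC. UBE2C, a ubiquitin-conjugating enzyme of mitosis, had 34 UMIs in 17 hRBC members and 21 UMIs in 11 5% pdRBC members (97.5 against 25.3 CPM, and 45.1 against 16.9 CPM). CDC20, which starts anaphase, rested on 16 and 10 UMIs (45.9 against 16.1 CPM, and 21.5 against 7.40 CPM). FOXM1, a transcription factor of mitotic genes (94.6 against 21.9 CPM, and 47.3 against 16.1 CPM), the chromatin protein HMGB2 (123 against 40.3 CPM, and 116 against 32.4 CPM) and the linker histone HIST1H1E (71.7 against 16.9 CPM, and 38.7 against 8.81 CPM) belong to the same 15 leading genes. Of 6 measured S phase genes RRM2, a subunit of ribonucleotide reductase, was called (log2 folds 1.65 and 1.39).

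At least 3 UMIs of G2 and M phase genes were found in 17 of 70 hRBC members (24.3%, 14.8 to 36.0) and 12 of 47 5% pdRBC members (25.5%, 13.9 to 40.3), against 11.5% and 8.30% of remaining barcodes. With barcodes thinned to 2000 UMIs the shares were 14.3% and 12.8% against 5.30% and 3.48%. Barcodes with such RNA were thus more frequent among members than among the rest in both libraries, and fewer than 3 such UMIs were found in most members. The cycling signal depended on which rule genes chose the members. In barcodes chosen on HERPUD1 and DNAJB9 alone, G2 and M phase genes were 1.09-fold (0.823 to 1.40) in hRBC and 0.537-fold (0.328 to 0.797) in 5% pdRBC of the remaining level, and in those chosen on the other 5 genes 4.64-fold and 2.79-fold. With HERPUD1 and DNAJB9 alone, UBE2C, FOXM1, HMGB2 and HIST1H1E had smaller log2 folds of -0.80, -3.44, -0.36 and -0.29. With cycling barcodes left out before members were chosen, 51 genes were called higher, 27 of them among the 109; 11 of 58 integrated stress genes and 10 of 58 reticulum genes were called, against 21 of 62 and 4 of 58.

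CXCL8, the neutrophil chemokine interleukin-8, was the third of the leading genes, and it came from few members. Its 66 UMIs in hRBC members lay in 8 of 70 barcodes with 40 in 1 of them, and its 126 UMIs in 5% pdRBC members in 17 of 47 with up to 32 in 1. The top 3 members held 92.4% and 57.9% of these UMIs. Its level was 189 CPM against 31.5 CPM and 271 CPM against 69.0 CPM. In members with 4 or more rule genes it was 12.5-fold and 5.39-fold above the remaining barcodes, and in the other members 0.748-fold and 0.840-fold. With barcodes thinned before scoring, its smaller log2 fold was -0.21. CXCL8 was the 1 of 6 measured leukocyte adhesion and chemokine genes called in both libraries, and ICAM1 had 3 and 9 UMIs in members (8.60 and 19.3 CPM, against 24.2 and 33.3 CPM).

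Further stress and death lists had few calls. Of 11 measured cell death factors, BBC3, which encodes the pro-apoptotic protein PUMA, was called higher (57.4 against 30.1 CPM, and 60.2 against 27.4 CPM). TNFRSF10B, the death receptor gene that CHOP is known to raise, had log2 folds of -0.28 and 0.25. Of 15 autophagy and lysosome genes GABARAPL1 was called (0.85 and 0.68), of 12 p53 targets GDF15, of 15 translation factors EIF4EBP1, a repressor of cap-dependent translation that ATF4 is known to raise (367 against 174 CPM, and 344 against 192 CPM), and of 12 immediate early genes IER3 (0.69 and 0.69). No gene was called in both libraries among 10 heat shock, 11 mitochondrial unfolded protein, 16 NRF2 and heme, 9 NF-kB feedback, 4 interferon, 12 hypoxia and glycolysis, 12 YAP/TAZ, 4 metallothionein and 16 ribosomal protein genes measured. In the 5% pdRBC members alone, 3 heat shock, 3 NRF2 and heme and 1 mitochondrial unfolded protein genes were called higher. Lower there were 2 YAP/TAZ genes and 1 hypoxia and glycolysis gene. In the hRBC members 1 mitochondrial unfolded protein gene was higher, and 2 heat shock, 1 NF-kB feedback and 1 interferon genes lower. Over all measured genes 5.05% were higher and 4.92% lower in 5% pdRBC members, and 4.67% and 2.44% in hRBC members. Of 9 laminar flow genes ADM was called higher (1.25 and 1.12) and PLPP3 lower (-0.66 and -0.68), and of 12 cholesterol synthesis genes SQLE lower (-0.73 and -0.61).

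Some endothelial genes were lower in members, with more calls in 5% pdRBC. Of 16 measured identity genes 2 were called lower in both libraries and 0 higher, with medians of -0.14 and -0.53. By single library, 3 were called lower in hRBC and 6 in 5% pdRBC. The number called lower in both was 0 at the top 8%, with thinned scores, with HERPUD1 and DNAJB9 alone and at 2-fold. It was 4 at the top 2% and 5 in members with 4 or more rule genes. EMCN, a sialomucin of venous and capillary endothelium, stood at 100 CPM against 197 CPM in hRBC and 79.5 CPM against 189 CPM in 5% pdRBC. SOX18, an endothelial transcription factor, stood at 218 CPM against 374 CPM and 94.6 CPM against 226 CPM. VWF, the platelet-tethering factor, had log2 folds of -0.43 and -0.94 and ENG, a TGF-beta coreceptor, -0.33 and -0.86. COL4A1, a chain of basement membrane collagen, was the 1 of 12 matrix genes called in both libraries (186 against 291 CPM, and 125 against 274 CPM), with list medians of -0.26 and -0.71. NRP2, a VEGF coreceptor, was the 1 of 10 angiogenic genes (100 against 198 CPM, and 90.3 against 192 CPM) and TFPI2, a protease inhibitor, the 1 of 11 coagulation genes (-0.83 and -1.06).

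Outside the lists, PLVAP, which forms the diaphragms of endothelial fenestrae, stood at 40.1 CPM against 83.1 CPM in hRBC and at 15 CPM against 48.5 CPM in 5% pdRBC. RASGRP3, an exchange factor for small GTPases (14.3 against 47.7 CPM, and 21.5 against 45.8 CPM), the nuclear adaptor LDB2 (74.6 against 154 CPM, and 90.3 against 200 CPM), the matrix protein LTBP2 (43.0 against 98.7 CPM, and 53.7 against 106 CPM) and the protease ADAMTS9 (22.9 against 115 CPM, and 86.0 against 157 CPM) were among the 15 leading genes called lower. The direction of PLVAP and LTBP2 did not hold when HERPUD1 and DNAJB9 alone chose the members. In members with 4 or more rule genes COL4A1 was at 0.336 and 0.396 of its remaining level and VWF at 0.292 and 0.449, against 0.909 and 0.610 and 1.12 and 0.683 in the other members. EMCN did not split this way, at 0.498 and 0.424 against 0.547 and 0.451, and MGP differed by library: it was at 0.193 against 1.26 in hRBC and at 0.455 against 0.245 in 5% pdRBC.

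Within the members, 2827 genes outside the rule had 50 or more UMIs over both libraries, and 5% pdRBC members were compared with hRBC members. On the same call, 125 genes (4.42%) were higher and 211 (7.46%) lower in the 5% pdRBC members. Among the remaining barcodes 19 of the same genes (0.672%) were higher and 10 (0.354%) lower. The members are few and unlike in depth, so a call in members and none in the rest is no test of a difference. Of the 125 genes 105 had the same sign in the remaining barcodes, and of the 211 genes 154 did. Their median log2 folds were 0.88 and -0.83 in members and 0.14 and -0.09 in the remaining barcodes.

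Immediate early genes were higher in 5% pdRBC members, as they were in the remaining barcodes of that library. EGR1, a transcription factor made within minutes of a stimulus, had 1 UMI in hRBC members and 51 UMIs in 14 of the 5% pdRBC members (2.87 and 110 CPM), and 8.65 and 71.5 CPM in the remaining barcodes. The ratio of 25.7 has a counting interval of 6.56 to 1539, since it rests on 1 UMI in hRBC members. ATF3, a stress-induced partner of AP-1 factors and a target of ATF4, had 14 UMIs in 6 hRBC members and 92 UMIs in 25 5% pdRBC members (40.1 and 198 CPM, log2 fold 2.26, against 1.55 in remaining barcodes). JUN stood at 103 and 398 CPM (1.93, against 0.96), KLF4, a flow-induced factor, at 28.7 and 116 CPM (1.96, against 0.98), PHLDA1 at 60.2 and 204 CPM (1.74, against 0.63), BHLHE40 at 34.4 and 116 CPM (1.71, against 0.78) and RND3 at 66.0 and 204 CPM (1.61, against 0.75). Of 9 immediate early genes measured in members 4 were called higher and 0 lower, and the median log2 fold was 0.63 in members and 0.60 in the rest.

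Other genes called between the members of the libraries, named here, had folds nearer 1 among the rest, a contrast that was not tested. HSPH1, a heat shock cochaperone, stood at 31.5 and 125 CPM in members (log2 fold 1.93, against 0.13 in remaining barcodes) and NEU1, a lysosomal sialidase, at 25.8 and 94.6 CPM (1.81, against 0.08). CCL2, the monocyte chemokine, had 9 UMIs in hRBC members and 64 in 5% pdRBC members, but 38 of the 64 were in 1 barcode. Its log2 fold was 2.35 in members and 0.36 in remaining barcodes. Of 45 reticulum genes 8 were called higher and 1 lower in 5% pdRBC members, with SDF2L1 (1.29, against -0.26), SELENOK (1.12, against -0.07), PDIA4 (1.03, against -0.01) and HSP90B1 (0.62, against -0.21) among the 8. The integrated stress genes had 4 higher and 2 lower of 31, with a median of 0.01. The highest-scoring 5% pdRBC barcode alone had 769 reticulum UMIs per 10000.

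Lower in 5% pdRBC members were the keratin gene KRT7 (264 and 58.0 CPM, log2 fold -2.17, against -0.33 in the remaining barcodes), the replication histone HIST1H4C (155 and 47.3 CPM, -1.69, against -1.19), the chloride channel BEST1 (215 and 68.8 CPM, -1.63, against -0.10), the actin-binding tropomyosin TPM1 (548 and 213 CPM, -1.36, against -0.19) and the WNT inhibitor DKK1 (421 and 172 CPM, -1.29, against -0.49). The direction of BEST1 turned when members were chosen among barcodes of 5000 or more UMIs (0.19) or had 4 or more rule genes (0.89). Of 15 endothelial identity genes 5 were lower and 0 higher, of 10 matrix genes 5 and 0, and of 8 coagulation genes 4 and 0. Among them were SOX18 (log2 fold -1.20, against -0.72 in remaining barcodes) and ENG (-0.62, against -0.08). The matrix genes COL4A2 (-0.94, against -0.13) and MGP (-0.77, against 0.23) were others. Members of hRBC had median UMIs of 3295.5 against 9604 in 5% pdRBC members. When members were chosen among barcodes of 5000 or more UMIs, the medians were 10792 and 9941. Of the leading genes within members, 18 kept direction and call there, 1 lost the call and 1, BEST1, turned. The part of depth in these differences was not tested further.

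**Figure D5:**
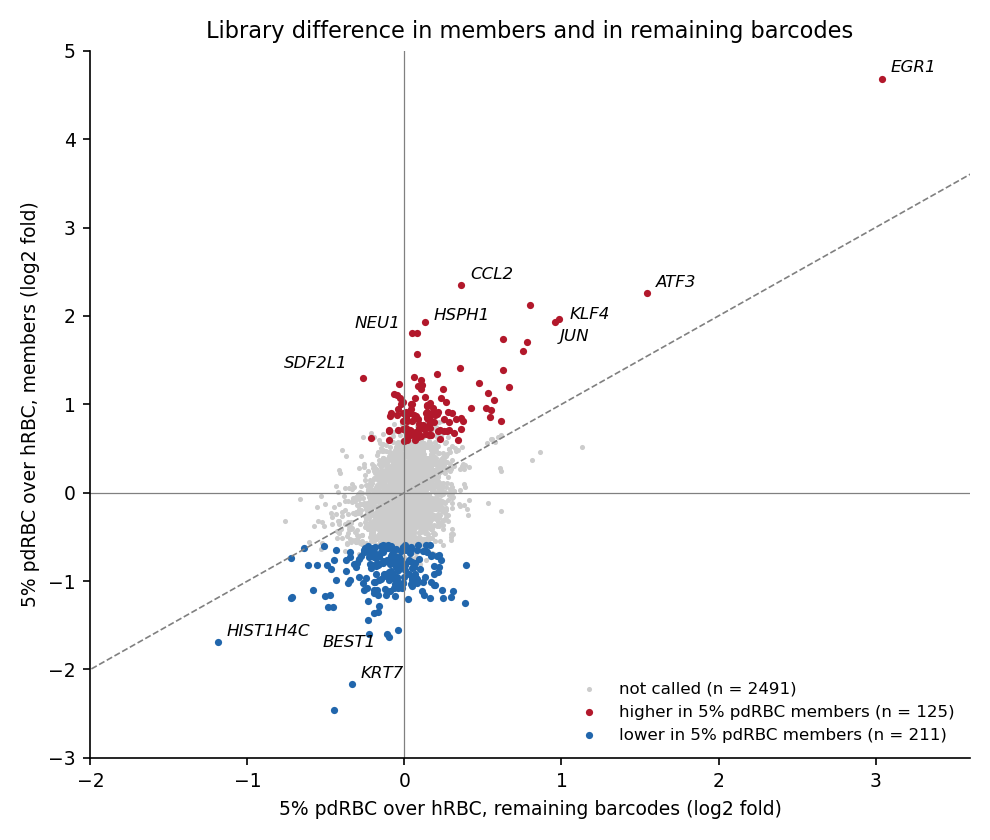
Log2 fold of 5% pdRBC over hRBC for 2827 genes in the remaining barcodes (horizontal axis) and in the members (vertical axis); coloured points are the 125 genes called higher and the 211 called lower in members, and the dashed line marks equal folds. EGR1, ATF3, JUN and KLF4 lie to the upper right, and HSPH1, NEU1 and SDF2L1 lie near 0 on the horizontal axis.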

How the data were processed

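The deposited matrices are UMI counts, not normalized, that Cell Ranger 7.0.0 produced on GRCh38, per the submitters' processing notes. Any further filter by the authors is not given in the sources used here, nor is whether counting used strand, so overlapping genes and near-identical families are uncertain. From these counts, members were chosen as stated above, UMIs were summed per library over members and over remaining barcodes, and CPM, folds with 0.5 UMIs added and exact Clopper-Pearson 95% intervals were computed (Python 3.11.15, NumPy 2.4.6, SciPy 1.17.1, pandas 2.3.3). The kept barcodes hold 11681126 (hRBC) and 16012201 (5% pdRBC) UMIs, and the members 348722 and 465134. Cells are not replicates, so no test across samples was possible with 1 library per group. Thinning drew 2000 UMIs per barcode (seed 1). Folds and intervals were tested on simulated data, where the call rule recovered lower genes less often than higher ones of the same fold. The simulation drew summed counts per gene with counting error only. It held no clumping of UMIs in few barcodes and no choice of members from the counts, so it cannot check the intervals against either. Of 36601 genes 34616 matched GENCODE release 29. The members and gene lists were chosen with earlier results of these data known.

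Named genes are the 7 rule genes, the 15 genes called higher and the 15 called lower with the largest weaker fold at 20 or more CPM, up to 4 genes of each list, and the 10 called higher and 10 called lower within members at 20 or more CPM. Mitochondrial, ribosomal protein, hemoglobin, clone-named, LINC, Y-linked and X-inactivation genes were left out of these. Other genes named (ATF4, CEBPG, SLC7A5, SLC7A11, PPP1R15A, PECAM1, CDH5, TNFRSF10B, CARS, IARS, TARS, YARS, XPOT and HYOU1) were chosen after their values were seen. A gene that the rule names is not reported here. The alternatives tried changed the share of barcodes chosen, the pooling, the depth, the score and its genes, cycling and deep barcodes, the weight of barcodes, the gene minimum and the fold.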

Additional observations from a re-analysis of the deposited data

Results flagged for a closer look

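HSPH1, NEU1 and KRT7 differed from the remaining barcodes in opposite directions in the members of the 2 libraries, and the difference between the libraries was not tested. HSPH1 had a log2 fold of -1.06 in hRBC members and 0.74 in 5% pdRBC members. NEU1 had log2 folds of -0.90 and 0.84 in the same order. KRT7 went the other way, at 0.74 and -1.09.

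The barcodes left out for low UMIs or a high mitochondrial share, which no comparison above uses, also held RNA of the 7 rule genes. In hRBC, 2486 such barcodes with a median of 972.5 UMIs stood at 204 CPM (188 to 222) for the 7 genes summed, against 171 CPM in kept barcodes and a floor of 3 counts at 1.14 CPM. In 5% pdRBC, 94 such barcodes stood at 205 CPM (138 to 292), against 170 CPM in kept barcodes and a floor of 20.5 CPM.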

How the results depend on the processing

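The shares of members in hRBC (5.10%) and 5% pdRBC (3.05%) were 2.77% and 1.36% at the top 2% of barcodes, 10.9% and 5.45% at the top 8%, 3.77% and 4.16% among barcodes of 5000 or more UMIs, and 0.989% and 1.71% with 4 or more rule genes; with HERPUD1 and DNAJB9 alone the 5% pdRBC share was 1.95%. Genes called higher in members of both libraries (109) were 58 with thinned scores (38 of them among the 109), 34 with HERPUD1 and DNAJB9 alone (11 among the 109), 51 without cycling barcodes, 43 at a minimum of 500 UMIs and 60 at 2-fold. Genes called lower (48) were 23 at the top 8%, 26 with thinned scores, 3 with HERPUD1 and DNAJB9 alone, 24 with equal weight per barcode, 5 at 2-fold and 115 with 4 or more rule genes. Within members, genes higher with 5% pdRBC (125) were 71 at the top 2%, 208 at the top 8%, 204 and 20 at minimums of 20 and 200 UMIs and 40 at 2-fold, and genes lower (211) were 327 and 42 at those minimums, 58 at 2-fold and 127 with 4 or more rule genes. The list medians kept their sign under all alternatives run: 0.24 to 0.94 (hRBC) and 0.39 to 0.64 (5% pdRBC) for integrated stress, 0.08 to 0.37 and 0.22 to 0.51 for the reticulum.

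Directions that did not hold are given as the less favourable library's log2 fold. With HERPUD1 and DNAJB9 alone they were AARS -0.53, FOXM1 -3.44, GOT1 -0.19, GTSE1 -1.03, HIST1H1E -0.29, HMGB2 -0.36 and UBE2C -0.80 among genes called higher, and ARL15 0.32, ARRB1 0.11, KIAA0355 0.023, LTBP2 0.25 and PLVAP 0.31 among those called lower. With thinned scores they were ARRB1 0.037 and CXCL8 -0.21, without cycling barcodes FOXM1 -0.79, HIST1H1E -0.26 and HMGB2 -0.16, and with the mean log-normalized score KIAA0355 0.0075 and LDLRAD4 0.10. TTLL5 was at 0.094 and, within members, BEST1 at 0.19 among barcodes of 5000 or more UMIs, and BEST1 at 0.89 with 4 or more rule genes. Apart from the alternatives' own construction, the cause was not tested. Of 480 values for leading genes against the remaining barcodes 346 kept direction and call and 114 lost the call; of 320 within members 303 and 15 did. The low and the high gene minimum could not change these values. Each added 30 kept values against the remaining barcodes and 20 within members by construction. The 4-gene alternative and leaving out the highest-scoring member of each library were chosen after seeing the data; the latter gave 112 higher (99 of them among the 109) and 46 lower. No paired analysis was possible because each group has 1 library and they share fewer than 2 replicate numbers.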

Other observations

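Some targets of ATF4 were too rare to be measured at the gene minimum, and stood at higher levels in members. CHAC1, which degrades glutathione, had 9 UMIs in 6 hRBC members and 22 UMIs in 11 of the 5% pdRBC members (25.8 and 47.3 CPM), against 1.5 and 0.900 CPM in remaining barcodes. PHGDH, the first enzyme of serine synthesis, had 16 UMIs in 6 hRBC members and 7 in 5 of the 5% pdRBC members (45.9 and 15 CPM, against 3.35 and 2.38 CPM). STC2, a secreted glycoprotein, had 13 UMIs in 8 and 15 in 10 members (37.3 and 32.2 CPM, against 6.44 and 6.24 CPM). NUPR1, a stress-induced chromatin factor, had 0 UMIs in hRBC members and 8 in 5 of the 5% pdRBC members. These genes were chosen after their values were seen.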
